A study of Mus musculus with 7 samples.

Results

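The 34 genes described here encode proteins of fatty acid oxidation and of peroxisomal lipid metabolism. They were taken by gene symbol from the textbook pathway, with earlier results of these data known. All 34 were found among the 17537 genes of the table. They were divided by the place of their product into 19 genes of mitochondrial fatty acid oxidation, 8 peroxisomal genes, and 7 regulators and other genes controlled by the peroxisome proliferator-activated receptors (PPARs). Across these classes, 17 genes are textbook PPAR-controlled genes. RNA was sequenced from whole renal tissue of C57BL/6 mice in 7 libraries. The 3 control libraries (C, replicates 2, 8 and 9) came from mice without hyperglycemia that had received the buffer alone. The 2 DM-22 libraries came from mice made hyperglycemic with streptozotocin, which destroys the insulin-producing beta cells, given at 60 mg/kg on 5 days and left hyperglycemic until week 22. The 2 DM+SGLT2i libraries came from mice treated in the same way that received dapagliflozin, an inhibitor of the glucose transporter SGLT2 of the proximal tubule, at 25 mg/kg in drinking water for the last 6 weeks, after 16 weeks of hyperglycemia. All mice were wild type and 8 to 10 weeks old at the start per the labels, which give male mice, whereas the study's methods name both sexes. Streptozotocin acts on beta cells and models insulin deficiency, and renal tissue holds all cell types of the organ at once.

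The proximal tubule of the kidney covers most of its energy demand by oxidizing fatty acids. Fatty acids enter the cell, are activated to acyl-CoA and pass into mitochondria as acylcarnitines, where each turn of beta-oxidation shortens the chain. Peroxisomes shorten very long, branched and dicarboxylic chains with their own enzymes and hand the products on. PPAR alpha, a nuclear receptor that binds fatty acids, and its coactivator PGC-1 alpha drive the transcription of many of these genes, and fasting or a high supply of fatty acids is known to raise them.

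Values are CPM (reads of a gene relative to the size of its library, scaled between libraries), and each library held between 46456125 and 56541594 reads on the listed genes, so that 1 read was worth at most 0.0231 CPM. Kidney markers were high in all libraries, with Slc34a1 (phosphate transporter of the proximal tubule) between 2841 and 9452 CPM. In some markers, 3 libraries differed strongly from the others of their group, and many results that rest on them are given with and without them. In C replicate 2 the 6 tubular injury markers summed to 5049 CPM against 651 and 558 CPM in the other two controls, the 6 macrophage markers summed to 488 CPM against 136 and 135 CPM, and the 13 proximal tubule markers summed to 11716 CPM against 25869 and 23235 CPM. In DM-22 replicate 1 the 4 thick ascending limb markers summed to 12921 CPM, compared with 3294 CPM in DM-22 replicate 2, and its proximal tubule sum was 13593 CPM against 23725 CPM. DM-22 replicate 2 had the highest distal convoluted tubule sum of all libraries, 1602 CPM against 356 CPM in replicate 1. It also had the highest podocyte sum, 633 CPM against 241 CPM. With 2 libraries in this group, neither can be called the one that stands apart. In DM+SGLT2i replicate 1 the adipose tissue markers summed to 1707 CPM, while the other 6 libraries lay between 44.8 and 92.8 CPM, and Adipoq (adiponectin) stood at 76.0 CPM against at most 3.31 CPM elsewhere. In bulk tissue, fewer cells of a type and less RNA per cell cannot be told apart. The sources used here do not say that each library is 1 animal, so that p-values measure the spread between these samples.

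Of the 34 genes, 0 passed the threshold of an adjusted p of 0.05 (limma, Benjamini-Hochberg over 13976 genes) in any of the 4 comparisons. Over all genes tested, 0% passed in each of DM-22 against C, DM+SGLT2i against C, DM+SGLT2i against DM-22, and the 4 diabetic libraries against C. At an unadjusted p under 0.05, DM-22 against C gave 2 genes higher (Acsl1 and Slc25a20), 5.88% of the 34 beside 1.19% of all genes tested, and 0 lower beside 3.28%. DM+SGLT2i against C gave 3 higher (Acsl1, Acot2 and Angptl4), 8.82% beside 0.665%, and 0 lower beside 0.415%. The 4 diabetic libraries against C gave 3 higher (Acsl1, Slc25a20 and Acot2), 8.82% beside 0.658%, and 0 lower beside 1.38%. DM+SGLT2i against DM-22 gave 0 in either direction, beside 2.25% higher and 1.66% lower. The comparisons with C share the same 3 control libraries, so their lists are not independent. As library weights, limma gave C replicates 2, 8 and 9 values of 0.167, 2.23 and 6.46. The control mean then rested mainly on C replicate 9. With these weights, 5 of the 34 genes passed for the 4 diabetic libraries against C, all higher (Acsl1, Acot1, Acot2, Hadha and Slc25a20). Beside them, 479 higher and 860 lower of all 13976 genes tested passed. A fit of limma voom to the recovered reads also called 0 of the 34 genes at the adjusted threshold in all 4 comparisons.

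Without C replicate 2, again 0 of the 34 genes passed the adjusted threshold, beside 0.0143% of all genes for DM-22, 0.122% for DM+SGLT2i and 0.200% for the 4 diabetic libraries, each against the remaining controls. At an unadjusted p under 0.05 the counts were 6 higher (17.6% beside 10.4%) and 1 lower (2.94% beside 14.8%) for DM-22. They were 6 higher (17.6% beside 8.73%) and 1 lower (2.94% beside 9.14%) for DM+SGLT2i. For the 4 diabetic libraries they were 7 higher (20.6% beside 10.4%) and 1 lower (2.94% beside 14.5%). The 7 genes were Acsl1, Slc25a20, Hadha, Hadhb, Eci1, Acot1 and Acot2, of which 5 are mitochondrial and 0 peroxisomal. The gene on the lower side was Ppara in DM-22 and in the 4 diabetic libraries, and Cd36 in DM+SGLT2i. Among the adjusted p-values without that library were 0.0826 for Acsl1 in DM-22 and 0.0707 for Acot2 in the 4 diabetic libraries.

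**Figure D1:**
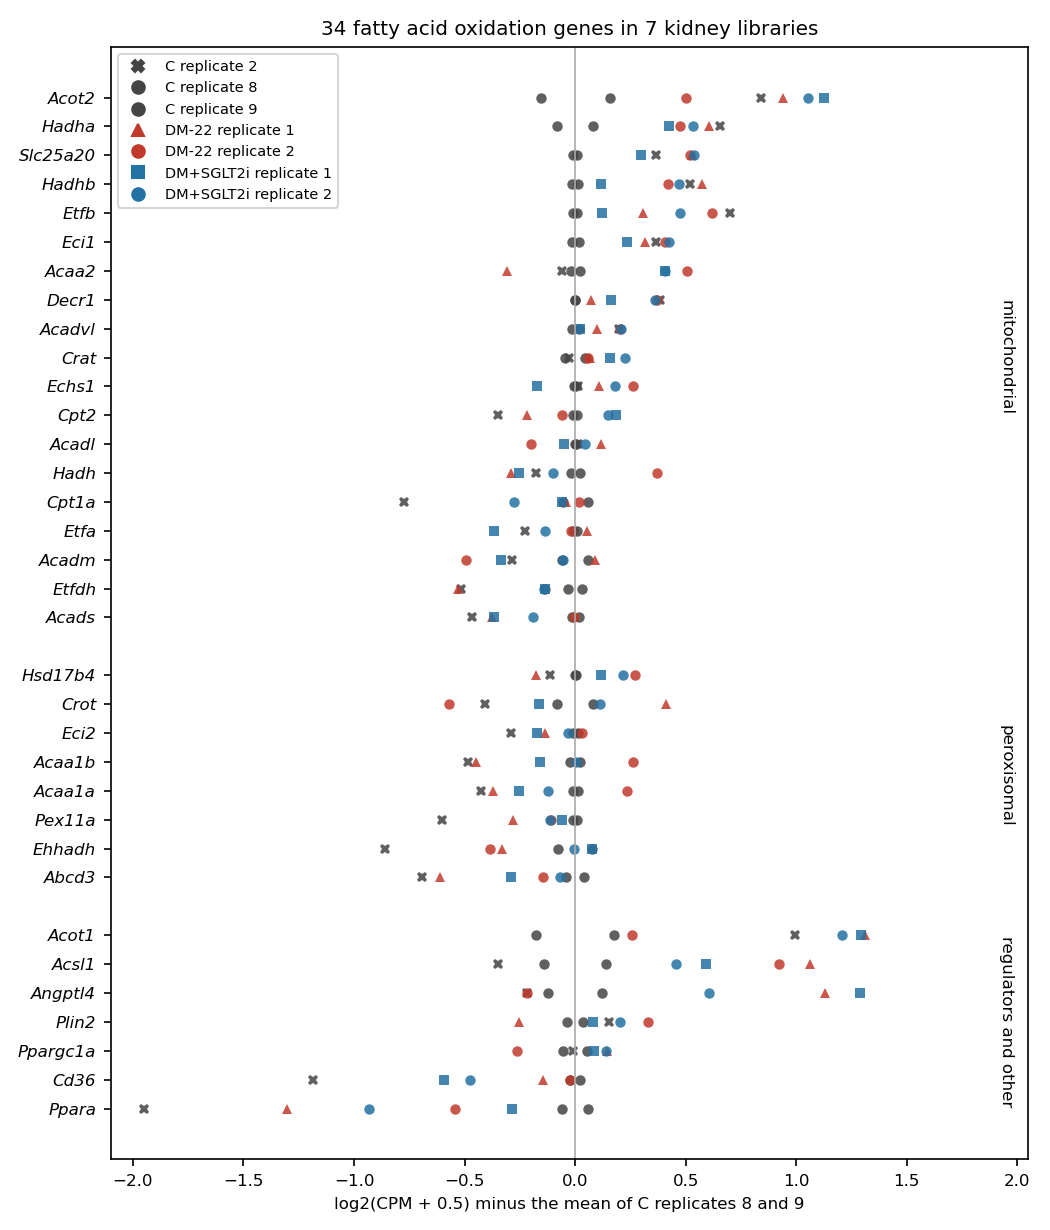
Level of each of the 34 genes in each of the 7 libraries, as log2(CPM + 0.5) minus the mean of C replicates 8 and 9 (horizontal axis). Genes are ordered within each class by the mean of the 4 diabetic libraries. Colour gives the group, and C replicate 2, DM-22 replicate 1 and DM+SGLT2i replicate 1 have separate symbols. C replicate 2 (cross) lay below the other controls for all 8 peroxisomal genes and above them for Acot2, Hadha, Hadhb and Etfb, and the 4 diabetic libraries lay above all controls for Acsl1.

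Ppara (chr15:85734983-85802819, + strand), which encodes PPAR alpha, stood at 21.2, 86.9 and 79.9 CPM in C replicates 2, 8 and 9, at 33.5 and 57.0 CPM in DM-22 replicates 1 and 2, and at 68.2 and 43.4 CPM in DM+SGLT2i replicates 1 and 2. The highest value was 4.09 times the lowest, the widest range of the 34 genes, and both ends of it were controls. All 4 diabetic libraries lay below C replicates 8 and 9 and above C replicate 2. With all controls the log2 fold change was -0.27 ± 0.63 (SE) for DM-22 and 0.04 ± 0.63 for DM+SGLT2i. Without C replicate 2 it was -0.92 ± 0.31 (adjusted p = 0.151) for DM-22 and -0.61 ± 0.31 (adjusted p = 0.358) for DM+SGLT2i, so that 1 library set the size in the first case and the sign in the second. Within each diabetic group the values differed as well, with DM-22 replicate 1 at 0.588 times replicate 2 and DM+SGLT2i replicate 1 at 1.57 times replicate 2. Ppargc1a, which encodes PGC-1 alpha, showed no such range, with 82.3, 86.1 and 79.9 CPM in C, 91.7 and 69.0 CPM in DM-22, and 88.1 and 91.4 CPM in DM+SGLT2i. Its log2 fold change was -0.06 ± 0.15 for DM-22 and 0.12 ± 0.15 for DM+SGLT2i, and leaving out C replicate 2 gave -0.06 ± 0.16 and 0.11 ± 0.16.

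Among the genes of uptake and activation, Acsl1 (chr8:46471037-46536051, + strand) separated the groups most clearly. Its product, long-chain acyl-CoA synthetase 1, couples fatty acids to coenzyme A as the first step of their use. The level was 172, 242 and 199 CPM in C, 458 and 416 CPM in DM-22, and 331 and 301 CPM in DM+SGLT2i. All 4 diabetic libraries were above all 3 controls, and the DM+SGLT2i values lay between the other two groups without overlap. The log2 fold change was 1.11 ± 0.19 for DM-22 (2.16-fold, adjusted p = 0.804), which ranked 2 by p among 13976 genes, and 0.64 ± 0.19 for DM+SGLT2i (1.56-fold, adjusted p = 1). Set directly against DM-22, the DM+SGLT2i libraries gave -0.47 ± 0.20 (adjusted p = 0.881). The separation from C did not rest on C replicate 2, without which the values were 0.99 ± 0.16 and 0.52 ± 0.16, nor on DM-22 replicate 1, without which the DM-22 value was 1.04 ± 0.24. In DM+SGLT2i replicate 1, the library with adipose markers, Acsl1 was 1.10 times that in replicate 2, and without it the DM+SGLT2i value was 0.57 ± 0.25.

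Cd36 (chr5:17781690-17888801, - strand), a fatty acid transporter of the plasma membrane, followed another order. It stood at 217, 487 and 503 CPM in C, 447 and 487 CPM in DM-22, and 328 and 356 CPM in DM+SGLT2i. The 2 DM+SGLT2i libraries lay below both DM-22 libraries and below C replicates 8 and 9, while C replicate 2 was the lowest of all. With all controls the log2 fold change for DM+SGLT2i was -0.14 ± 0.38 against C and -0.45 ± 0.41 against DM-22 (adjusted p = 0.881). Leaving out C replicate 2 gave -0.53 ± 0.15 (adjusted p = 0.168) and -0.45 ± 0.15 (adjusted p = 0.463). For DM-22 against C the sign turned from 0.31 ± 0.38 to -0.08 ± 0.15.

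The carnitine shuttle carries acyl groups across the mitochondrial membranes. Cpt1a, which encodes the rate-limiting carnitine palmitoyltransferase of the outer membrane, stood at 403 CPM in C replicate 2 and between 568 and 716 CPM in the other 6 libraries, where the DM+SGLT2i values, 660 and 568 CPM, lay just below the DM-22 values, 668 and 697 CPM, and C overlapped both. Slc25a20 (chr9:108662088-108684641, + strand), the carnitine-acylcarnitine translocase of the inner membrane, stood at 64.9, 50.5 and 49.9 CPM in C, 72.7 and 72.2 CPM in DM-22, and 61.8 and 73.1 CPM in DM+SGLT2i. Both DM-22 libraries were above all controls, and DM+SGLT2i replicate 1 lay below C replicate 2. The log2 fold change was 0.40 ± 0.16 for DM-22 (adjusted p = 0.804) and 0.29 ± 0.16 for DM+SGLT2i (adjusted p = 1), and without C replicate 2 these were 0.53 ± 0.12 (adjusted p = 0.0975) and 0.42 ± 0.12 (adjusted p = 0.185). Cpt2, the palmitoyltransferase of the inner membrane, ranged from 139 to 178 CPM in C, stood at 152 and 170 CPM in DM-22 and at 201 and 196 CPM in DM+SGLT2i, where it was above all other libraries. Its log2 fold change for DM+SGLT2i was 0.28 ± 0.16 against C (adjusted p = 1) and 0.30 ± 0.18 against DM-22 (adjusted p = 0.881). Without C replicate 2 the value against C was 0.16 ± 0.12 (adjusted p = 0.515). Crat, which attaches acetyl groups to carnitine, was at 186, 196 and 184 CPM in C and between 198 and 222 CPM in the 4 diabetic libraries, and with Acsl1 it was 1 of the 2 genes in which these libraries lay above all controls. The difference was small, with a log2 fold change of 0.07 ± 0.12 for DM-22 and 0.20 ± 0.12 for DM+SGLT2i.

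**Figure D2:**
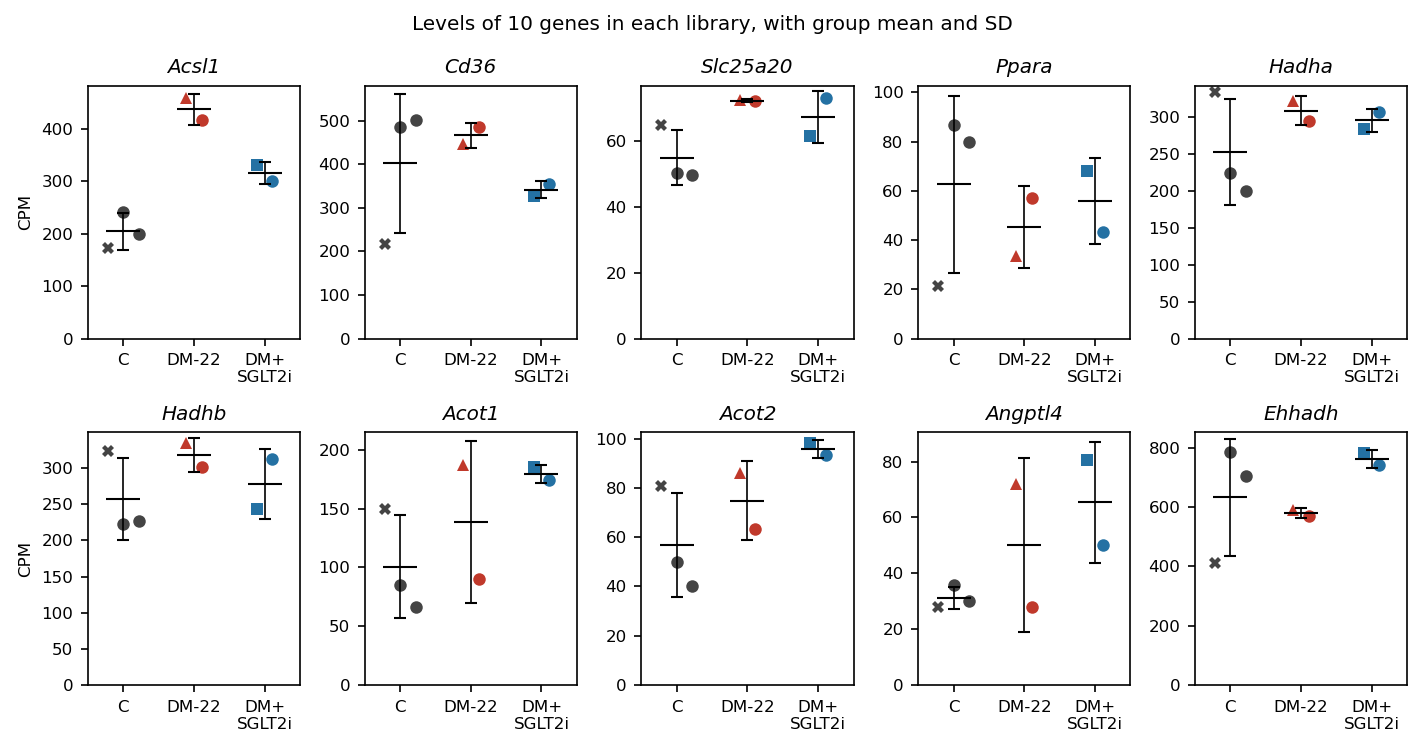
CPM of 10 genes in each library (points), with the group mean (long dash) and SD (error bars) for C (n = 3), DM-22 (n = 2) and DM+SGLT2i (n = 2). The cross is C replicate 2, the triangle DM-22 replicate 1 and the square DM+SGLT2i replicate 1, and in Acsl1 the 4 diabetic libraries (301 to 458 CPM) lie above the 3 controls (172 to 242 CPM).

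Hadha and Hadhb encode the alpha and beta subunits of the mitochondrial trifunctional protein, which carries out the last 3 steps of each turn for long chains, and they lie head to head on chromosome 5. The starts of the RefSeq transcripts are 273 bases apart, Hadha on the - strand and Hadhb on the + strand, so that the windows of 300 bases around both starts share 228 bases. In the annotation used for exon lengths (GENCODE M21) the starts are closer. There Hadha reaches to base 30155162, inside the shared stretch, and Hadhb begins at base 30155248. This shared stretch is shown because both genes read out from it in opposite directions (GRCm38.p6, chr5:30155003-30155230, + strand, sequence from RefSeq, no part in capitals):

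Hadha and Hadhb shared promoter: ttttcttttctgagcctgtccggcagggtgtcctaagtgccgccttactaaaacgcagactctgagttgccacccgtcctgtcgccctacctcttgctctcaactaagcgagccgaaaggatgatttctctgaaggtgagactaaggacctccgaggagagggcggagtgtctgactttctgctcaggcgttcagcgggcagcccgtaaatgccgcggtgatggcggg

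Hadha stood at 334, 224 and 200 CPM in C, 322 and 294 CPM in DM-22, and 284 and 306 CPM in DM+SGLT2i. Hadhb stood at 323, 223 and 227 CPM in C, 335 and 301 CPM in DM-22, and 244 and 312 CPM in DM+SGLT2i. In both genes C replicate 2 was as high as the diabetic libraries, whereas C replicates 8 and 9 were below all 4 of them. The ratio of Hadha to Hadhb stayed between 0.879 and 1.17 over the 7 libraries, although each gene ranged over 1.67 and 1.5 times. For DM-22 the log2 fold change was 0.32 ± 0.24 (Hadha) and 0.32 ± 0.22 (Hadhb), and without C replicate 2 it was 0.54 ± 0.14 (adjusted p = 0.106) and 0.49 ± 0.17 (adjusted p = 0.152). For DM+SGLT2i the values without C replicate 2 were 0.48 ± 0.14 (adjusted p = 0.185) and 0.29 ± 0.17 (adjusted p = 0.406). Of the distinct 50-base words of the Hadhb transcripts, 19.7% also occur in transcripts of another gene, chiefly Gm13910, so that part of its reads may have been assigned elsewhere.

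The remaining enzymes of the mitochondrial spiral follow in the order of their steps. The acyl-CoA dehydrogenases, which open each turn, were Acadvl for very long chains (313 to 366 CPM over the 7 libraries), Acadl for long chains (284 to 354 CPM), Acadm for medium chains (551 to 827 CPM) and Acads for short chains (198 to 277 CPM). In all 4 of them the 3 groups overlapped. Acadm stood at 637, 809 and 745 CPM in C, 827 and 551 CPM in DM-22, and 616 and 748 CPM in DM+SGLT2i, so that the 2 DM-22 libraries were its highest and lowest. Its log2 fold change was -0.11 ± 0.25 for DM-22 and -0.10 ± 0.25 for DM+SGLT2i. Acads, at 198, 277 and 271 CPM in C, 211 and 273 CPM in DM-22, and 212 and 240 CPM in DM+SGLT2i, gave -0.03 ± 0.21 and -0.12 ± 0.21. Among the enzymes of the later steps, Hadh (short-chain hydroxyacyl-CoA dehydrogenase) ranged from 435 to 686 CPM, Echs1 (short-chain enoyl-CoA hydratase) from 213 to 288 CPM, and Acaa2 (mitochondrial thiolase) from 204 to 359 CPM. Acaa2 was at 335 CPM in both DM+SGLT2i libraries, above all 3 controls (242 to 256 CPM), with a log2 fold change of 0.43 ± 0.24 (adjusted p = 1), while its 2 DM-22 values, 204 and 359 CPM, enclosed all other libraries. The auxiliary enzymes for unsaturated chains were Decr1 (2,4-dienoyl-CoA reductase, 212 to 277 CPM) and Eci1 (enoyl-CoA isomerase, 69.2 to 93.9 CPM). Eci1 had 90.4, 70.7 and 69.2 CPM in C, 87.2 and 93.0 CPM in DM-22, and 82.5 and 93.9 CPM in DM+SGLT2i, the same order of controls as in Hadha. Its log2 fold change without C replicate 2 was 0.36 ± 0.12 (adjusted p = 0.148) for DM-22 and 0.33 ± 0.12 (adjusted p = 0.240) for DM+SGLT2i.

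Electrons from the acyl-CoA dehydrogenases pass through the electron transfer flavoprotein (Etfa and Etfb, its 2 subunits) to the oxidoreductase encoded by Etfdh. Per kilobase of exon, Etfb was the most abundant of the 34 genes, with a mean of 378 CPM per kb over the 7 libraries, and Etfa stood at 189 CPM per kb. Etfa had 317, 368 and 373 CPM in C, 384 and 366 CPM in DM-22, and 287 and 337 CPM in DM+SGLT2i, and the DM+SGLT2i libraries lay below both DM-22 libraries (log2 fold change -0.27 ± 0.18, adjusted p = 0.881). Etfb went the other way among the controls, at 564 CPM in C replicate 2 against 349 and 345 CPM, so that the ratio of Etfa to Etfb ranged from 0.562 in C replicate 2 to 1.08 in C replicate 9. Of the 50-base words of Etfb, 44.8% also occur in another gene's transcripts, nearly all in Gm45233, which makes its level uncertain. Etfdh had 144, 211 and 202 CPM in C, 143 and 188 CPM in DM-22, and 188 and 187 CPM in DM+SGLT2i. Its log2 fold change for DM-22 was -0.16 ± 0.22 and without C replicate 2 it was -0.33 ± 0.16 (adjusted p = 0.266).

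Acot1 and Acot2 encode acyl-CoA thioesterases of the cytosol and of mitochondria, which release fatty acids from coenzyme A. They lie next to each other on chromosome 12 (Acot2 at chr12:83987861-83993873, Acot1 at chr12:84009490-84018371, both on the + strand). Acot1 stood at 150, 85.1 and 66.4 CPM in C, 187 and 90.0 CPM in DM-22, and 185 and 174 CPM in DM+SGLT2i. Acot2 stood at 80.6, 49.9 and 40.1 CPM in C, 86.2 and 63.5 CPM in DM-22, and 98.3 and 93.3 CPM in DM+SGLT2i. Both DM+SGLT2i libraries exceeded all controls in both genes, and among the controls C replicate 2 was the highest, at 1.99 and 1.79 times the mean of the other two on the log scale. For DM+SGLT2i against C the log2 fold change was 0.92 ± 0.42 for Acot1 (adjusted p = 1) and 0.81 ± 0.30 for Acot2 (adjusted p = 1). With C replicate 2 left out these were 1.25 ± 0.34 (adjusted p = 0.166) and 1.09 ± 0.19 (adjusted p = 0.0973). For DM-22 the value of Acot1 rested on replicate 1, with 0.45 ± 0.42 from both libraries and -0.07 ± 0.44 without it, and that of Acot2 was 0.44 ± 0.30 and 0.22 ± 0.38. Acot1 shares 13.6% of its 50-base words with Acot2, and Acot2 shares 24.5% of its words with Acot1, so that reads in these stretches cannot be assigned to 1 of them. The ratio of Acot1 to Acot2 lay between 1.42 and 2.17.

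The 8 peroxisomal genes were all lower in C replicate 2 than the mean of C replicates 8 and 9. Ehhadh (chr16:21761287-21787807, - strand), the peroxisomal bifunctional enzyme of the middle steps and a classical PPAR alpha target, stood at 410, 785 and 705 CPM in C, 591 and 569 CPM in DM-22, and 784 and 741 CPM in DM+SGLT2i. The DM-22 libraries lay below C replicates 8 and 9 and below both DM+SGLT2i libraries, whose values were close to those 2 controls. The log2 fold change for DM+SGLT2i against DM-22 was 0.39 ± 0.33 (adjusted p = 0.881) and with the spread estimated without C replicate 2 it was 0.39 ± 0.17 (adjusted p = 0.465). For DM-22 against C it was -0.07 ± 0.30 with all controls and -0.36 ± 0.17 (adjusted p = 0.247) without C replicate 2. Abcd3, which imports acyl-CoA through the peroxisomal membrane, had 275, 458 and 433 CPM in C, 291 and 402 CPM in DM-22, and 364 and 425 CPM in DM+SGLT2i. Its log2 fold change for DM-22 was -0.15 ± 0.28, and -0.38 ± 0.20 (adjusted p = 0.294) without C replicate 2.

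Acaa1a and Acaa1b encode 2 closely related peroxisomal thiolases, both on chromosome 9. Acaa1a stood at 179, 243 and 239 CPM in C, 186 and 284 CPM in DM-22, and 202 and 221 CPM in DM+SGLT2i. Acaa1b stood at 290, 412 and 400 CPM in C, 297 and 487 CPM in DM-22, and 363 and 407 CPM in DM+SGLT2i. In both genes the 2 DM-22 libraries enclosed C replicates 8 and 9, with DM-22 replicate 1 at 0.655 and 0.610 times replicate 2, and none of their log2 fold changes exceeded its standard error in any comparison, with or without C replicate 2. Acaa1b shares 30.5% of its 50-base words with Acaa1a, and the ratio of Acaa1a to Acaa1b lay between 0.543 and 0.626. Hsd17b4, the bifunctional enzyme for branched chains, ranged from 242 to 330 CPM, and Eci2, the peroxisomal enoyl-CoA isomerase, from 107 to 134 CPM. Crot, which converts shortened chains to carnitine esters for export, had its highest and lowest value in the 2 DM-22 libraries, 575 and 291 CPM, with the other 5 between 326 and 468 CPM. Pex11a, which promotes division of peroxisomes, ranged from 35.4 CPM in C replicate 2 to 54.4 CPM, with the 4 diabetic libraries between 44.4 and 51.9 CPM, just below C replicates 8 and 9.

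Of the remaining PPAR-controlled genes, Angptl4 (chr17:33773750-33781830, - strand), a secreted inhibitor of lipoprotein lipase, stood at 28.1, 35.7 and 30.0 CPM in C, 72.1 and 28.1 CPM in DM-22, and 80.7 and 50.1 CPM in DM+SGLT2i. Both DM+SGLT2i libraries and DM-22 replicate 1 were above all controls, and DM-22 replicate 2 was at the level of the lowest control. The log2 fold change was 1.02 ± 0.40 for DM+SGLT2i (adjusted p = 1) and 0.53 ± 0.40 for DM-22, and the latter was -0.14 ± 0.30 without DM-22 replicate 1. Without C replicate 2 the values were 0.95 ± 0.46 (adjusted p = 0.34) for DM+SGLT2i and 0.46 ± 0.46 for DM-22. Adipose tissue also expresses Angptl4, and without DM+SGLT2i replicate 1, the library with the adipose markers, the DM+SGLT2i value was 0.68 ± 0.51 (adjusted p = 1). The part of these markers in the difference was not tested further. Plin2, which coats lipid droplets, ranged from 80.6 to 121 CPM, both ends being DM-22 libraries, and its log2 fold change was -0.01 ± 0.19 for DM-22 and 0.09 ± 0.19 for DM+SGLT2i.

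**Figure D3:**
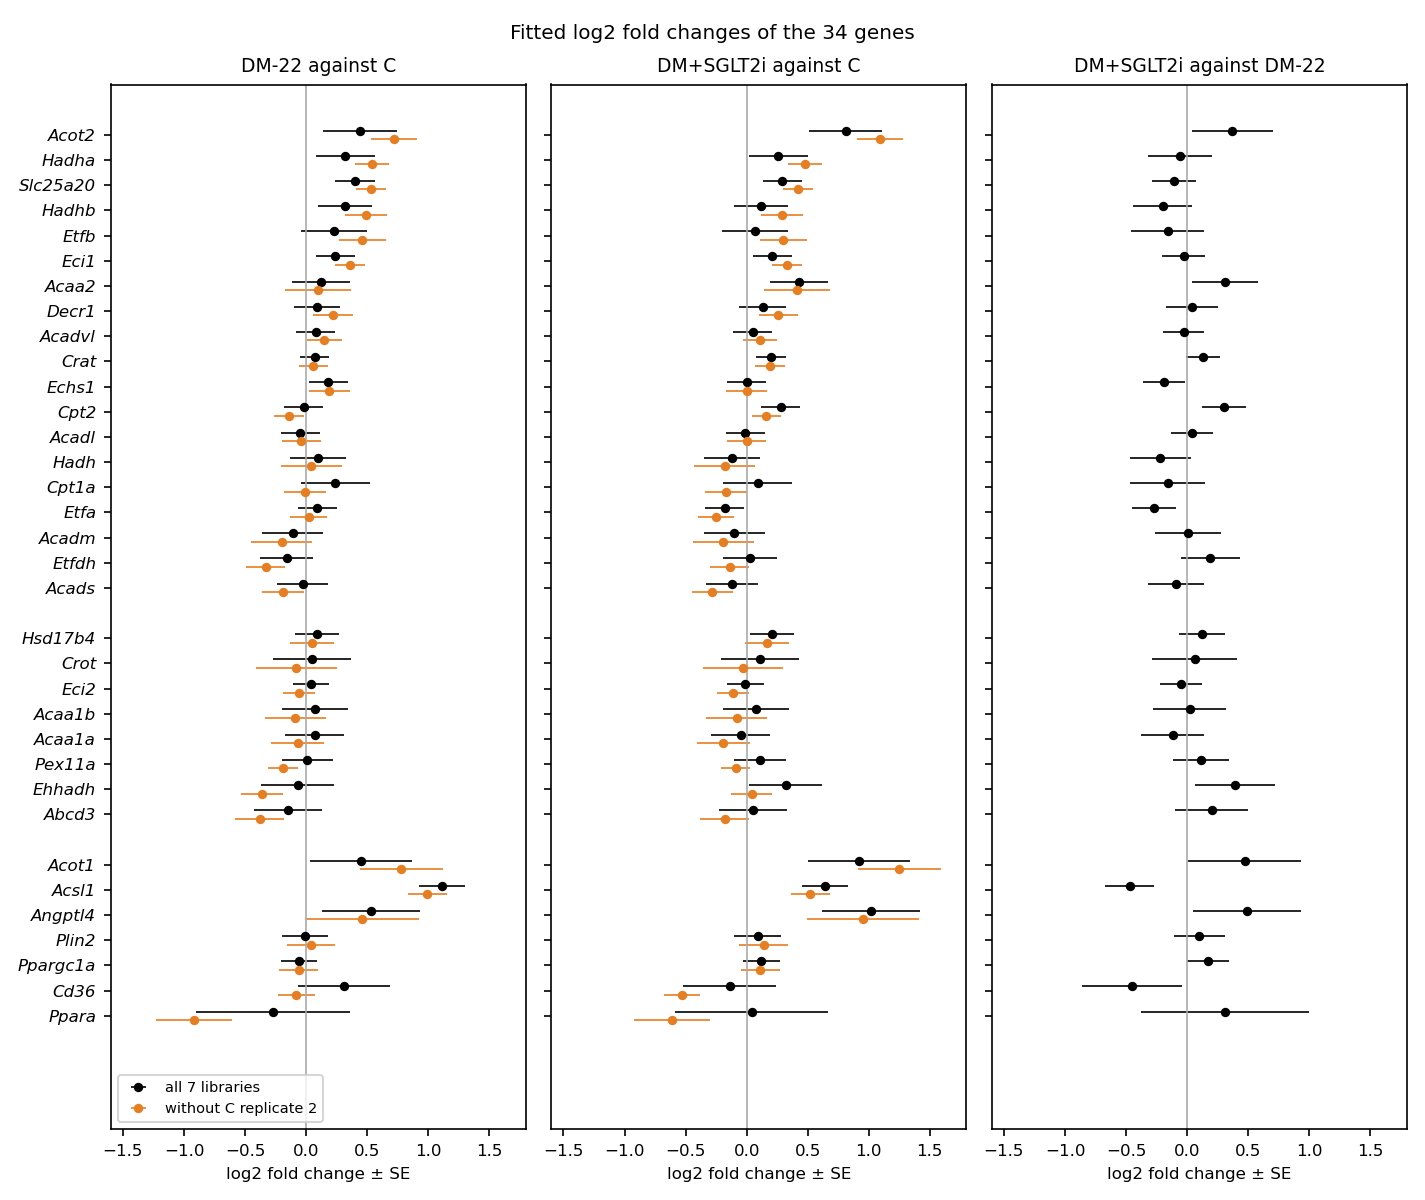
Fitted log2 fold change (points) and its SE (bars) of the 34 genes for the 3 pairs of groups, with all 7 libraries (black) and, for the comparisons with C, without C replicate 2 (orange). Without C replicate 2 the values of Ppara, Cd36 and 7 peroxisomal genes lie below 0 for DM-22, and those of Acsl1, Acot1, Acot2, Hadha and Slc25a20 lie above 0 in both comparisons with C.

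PPAR alpha binds DNA together with RXR at 2 half-sites spaced by 1 base, spelled AGGTCANAGGTCA. Windows from 250 bases before to 50 bases after each start (RefSeq, GRCm38.p6) were at hand for 29 of the 34 genes, in 31 windows, and were searched on both strands with the 12 fixed letters compared. No window of these genes held the motif with 0 or 1 mismatches, beside 0.0396% and 0.554% of all 32851 windows. With 2 mismatches it was found in 5 of the 31 windows (16.1%) beside 3.86% of all windows, in 3 of 16 mitochondrial windows, 0 of 8 peroxisomal windows and 2 of 7 windows of the other class. These 5 matches are shown, each read on the strand of its gene with the 13 bases of the match in capitals. They were chosen as the nearest matches among these genes, and the values of all 5 genes are described above.

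Slc25a20: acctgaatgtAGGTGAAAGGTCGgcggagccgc
Cd36: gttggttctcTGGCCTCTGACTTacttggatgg
Plin2: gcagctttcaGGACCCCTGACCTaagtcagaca
Etfa: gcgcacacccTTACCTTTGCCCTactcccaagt
Echs1: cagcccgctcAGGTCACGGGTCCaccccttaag

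The match in Slc25a20 lies from base 6 to base 18 after the start, at chr9:108662132-108662164 with its flanks. Those of the other 4 genes lie before the start, on the - strand of the genome, at chr5:17835937-17835969 (Cd36), chr4:86670262-86670294 (Plin2), chr9:55512298-55512330 (Etfa) and chr7:140116482-140116514 (Echs1). The RefSeq start used for Cd36 is an internal one, because the gene as annotated spans chr5:17781690-17888801. Acsl1, Acot1 and Angptl4 are not among them: the nearest match had 4 mismatches in Acsl1 and Acot1, and no window was at hand for Angptl4. A match of letters is not a binding site, and functional elements of these genes may lie outside these windows.

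Between classes, the sign of the peroxisomal median against C turned with the removal of single libraries, and that of the mitochondrial median did not. This holds for the 19 listed mitochondrial genes only. A wider list of 23 other mitochondrial genes had medians of -0.00 for DM-22 and -0.05 for DM+SGLT2i with all controls. Without C replicate 2 its medians were -0.14 and -0.17. This list is mixed, since Pcca, Pccb, Mut, Mcee, Hibch, Sirt3 and Acacb in it do not encode enzymes of beta-oxidation. With all controls, 14 of 19 mitochondrial and 6 of 8 peroxisomal genes had a log2 fold change above 0 for DM-22, with medians of 0.10 and 0.05, beside a median of 0.00 over all genes tested. Without C replicate 2 it was 13 of 19 mitochondrial genes, again with a median of 0.10, but 1 of 8 peroxisomal genes, with a median of -0.09. For DM+SGLT2i the counts were 13 of 19 and 6 of 8 with all controls (medians 0.09 and 0.10), and 12 of 19 and 2 of 8 without C replicate 2 (medians 0.16 and -0.08). The peroxisomal median was also below 0 without DM-22 replicate 2 (-0.11 for DM-22) and without DM+SGLT2i replicate 2 (-0.01 for DM+SGLT2i). For the 7 regulators and other genes the medians were 0.31 for DM-22 and 0.12 for DM+SGLT2i, and without C replicate 2 they were 0.04 and 0.14. The 17 PPAR-controlled genes, taken across the classes, had 12 above 0 for DM-22 and 13 for DM+SGLT2i, which became 8 and 10 without C replicate 2, with medians of -0.01 and 0.11. Between DM+SGLT2i and DM-22, 8 of 19 mitochondrial and 6 of 8 peroxisomal genes were above 0, with medians of -0.03 and 0.08. The spread of the class medians of single libraries within groups was 0.07 for the mitochondrial and 0.23 for the peroxisomal genes (SD, log2 scale). It describes single libraries and is not an error of the fitted medians. The mitochondrial medians against C were 0.09 to 0.16 in these fits, and were lower under some of the alternatives given below. No test was made of the difference between classes.

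The same values, taken library by library, are no separate evidence and show which libraries the medians rested on. Relative to the mean of C replicates 8 and 9, the median peroxisomal gene lay at -0.46 (log2) in C replicate 2, at -0.31 in DM-22 replicate 1 and at -0.16 in DM+SGLT2i replicate 1, and at -0.04 and -0.02 in the second library of each diabetic group. The median mitochondrial gene lay at 0.01 in C replicate 2 and at 0.09 and 0.26 in DM-22 replicates 1 and 2 and 0.11 and 0.21 in DM+SGLT2i replicates 1 and 2. The 3 libraries with low peroxisomal medians include the 2 with the lowest proximal tubule sums, 11716 CPM in C replicate 2 and 13593 CPM in DM-22 replicate 1, and the DM+SGLT2i libraries had 17191 and 17768 CPM. The part of the proximal tubule share in these medians was not tested. C replicate 2 was the lowest of the 7 libraries for 12 of the 34 genes (35.3%, beside 19.0% of all genes tested), of which 6 were peroxisomal. It was the highest for 3 genes, all mitochondrial (8.82%, beside 16.4% of all genes tested). DM+SGLT2i replicate 2 was the lowest for 0 genes beside 2.70% of all genes tested.

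**Figure D4:**
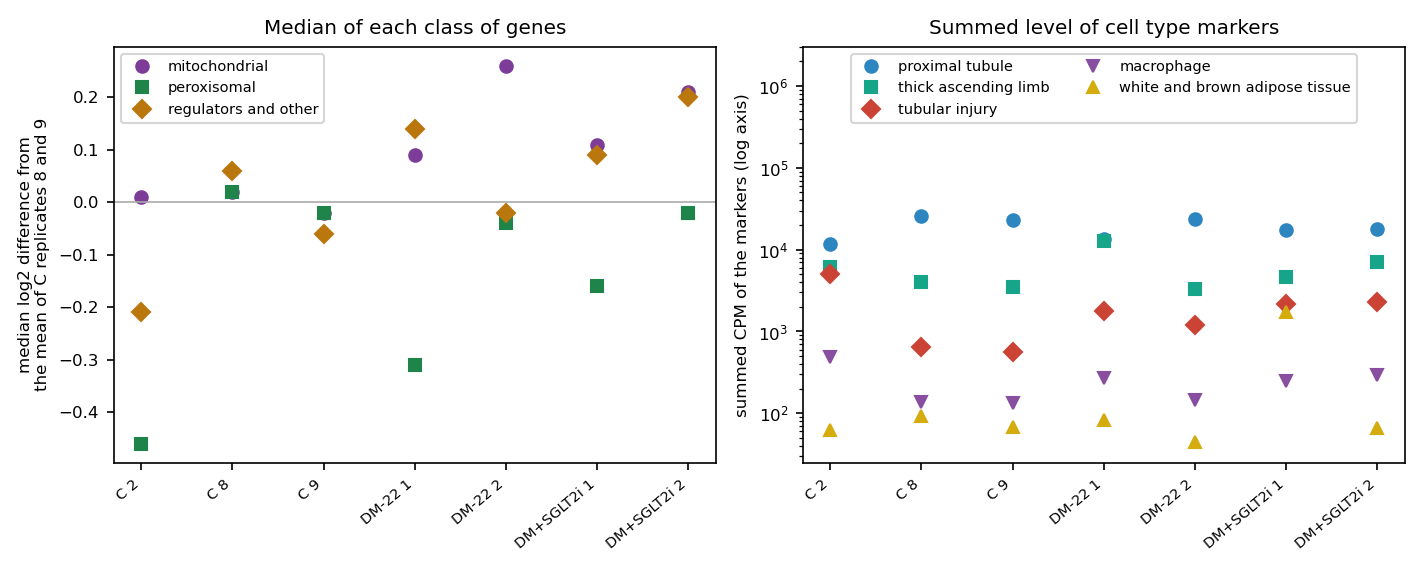
Left, the median over the 19 mitochondrial, 8 peroxisomal and 7 other genes of the log2 difference from the mean of C replicates 8 and 9, in each library. Right, the summed CPM of 5 sets of cell type markers in the same libraries (log axis), where C replicate 2 has the highest injury and macrophage sums and the lowest proximal tubule sum, and DM+SGLT2i replicate 1 has the highest adipose sum.

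By groups that did not overlap, DM-22 lay wholly above C for 4 of the 34 genes (11.8%: Acsl1, Slc25a20, Echs1 and Crat) beside 10.8% of all genes tested, and wholly below for 0 beside 9.29%. DM+SGLT2i lay wholly above C for 9 genes (26.5%: Ppargc1a, Acsl1, Cpt2, Acaa2, Hsd17b4, Crat, Acot1, Acot2 and Angptl4) beside 5.67%, and below for 0 beside 6.59%. The 4 diabetic libraries together lay above C for 2 genes (5.88%) beside 1.31%, and below for 0 beside 1.38%. DM+SGLT2i lay above DM-22 for 4 genes (11.8%: Cpt2, Ehhadh, Crat and Acot2) beside 21.4%, and below for 4 (11.8%: Cd36, Acsl1, Cpt1a and Etfa) beside 20.0%. The share in the comparison of the 2 diabetic groups was thus no larger than among all genes. The counts of 0 below C rested on C replicate 2. Against C replicates 8 and 9 alone, DM-22 lay wholly above for 12 genes (35.3% beside 29.9%) and below for 6 (17.6% beside 29.5%), and DM+SGLT2i above for 17 (50% beside 28.2%) and below for 11 (32.4% beside 33.5%). The 4 diabetic libraries lay above these 2 controls for 11 genes (32.4% beside 15.1%), of which 9 were mitochondrial and 0 peroxisomal, and below for 4 (Ppara, Etfdh, Abcd3 and Pex11a; 11.8% beside 20.8%).

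Further genes of the pathway and of related metabolism gave 0 calls at the adjusted threshold with all controls in any of the 4 comparisons. Of 22 other PPAR alpha targets tested, 19 had a log2 fold change above 0 for DM+SGLT2i against C (median 0.41, 3 at an unadjusted p under 0.05) and 13 for DM-22 (median 0.08, 0 at that p). Over all 13976 genes tested, 6602 were above 0 for DM+SGLT2i (median -0.01, 0.665% higher at that p) and 7081 for DM-22 (median 0.00, 1.19% higher). Cyp4a14, a fatty acid omega-hydroxylase, had a log2 fold change of 2.76 ± 1.91 and Cidec one of 2.46 ± 1.47 for DM+SGLT2i (adjusted p = 1 for both). Cyp4a14 stood at 957, 36.5 and 12.4 CPM in C, 280 and 17.6 CPM in DM-22, and 581 and 470 CPM in DM+SGLT2i, so that its highest value was in C replicate 2. Cidec, a lipid droplet protein of adipocytes, was at 85.4 CPM in DM+SGLT2i replicate 1 and at most 3.14 CPM elsewhere. Pdk4, which restrains glucose oxidation when fatty acids are burnt, stood at 128 CPM in DM-22 replicate 1 and 9.13 CPM in replicate 2.

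Of the 23 genes of the wider mitochondrial list, 11 were above 0 for DM-22 and 7 for DM+SGLT2i against C (medians -0.00 and -0.05). Acsf2, a mitochondrial acyl-CoA synthetase, stood at 71.4, 29.4 and 27.6 CPM in C, 32.6 and 37.8 CPM in DM-22, and 104 and 81.9 CPM in DM+SGLT2i. It passed the threshold for DM+SGLT2i only where C replicate 2 was left out, with a log2 fold change of 1.68 ± 0.16 (adjusted p = 0.0490) instead of 1.24 ± 0.41 (adjusted p = 1). Of 29 other peroxisomal enzymes, 14 were above 0 for DM-22 and 11 for DM+SGLT2i (medians -0.01 and -0.06). They include Cat (catalase), so not all of them act on lipids. Of 17 peroxisome biogenesis genes, 13 and 3 were above 0 (medians 0.04 and -0.07). Of 18 genes of the PPAR system, which includes Ppara and Ppargc1a, 6 and 10 were above 0 (medians -0.09 and 0.04), and Pparg was at 13 CPM in DM+SGLT2i replicate 1 and at most 3.35 CPM elsewhere. Of 24 genes of fatty acid uptake, binding and lipid droplets, 14 and 16 were above 0 (medians 0.04 and 0.07). Several of these medians moved when C replicate 2 was left out. For DM-22 and DM+SGLT2i in turn they were then 0.31 and 0.53 for the other PPAR alpha targets, -0.14 and -0.17 for the other mitochondrial genes, -0.13 and -0.19 for the other peroxisomal enzymes, and -0.01 and -0.14 for peroxisome biogenesis. For the PPAR system they were -0.23 and -0.17, with 4 and 5 genes above 0, so that the sign turned for DM+SGLT2i, and for uptake, binding and droplets they were -0.14 and 0.20, so that it turned for DM-22.

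Summed markers of the other cell types are given for C and for the diabetic libraries. Distal convoluted tubule markers summed to between 763 and 1057 CPM in C and between 356 and 1602 CPM in the diabetic libraries. The sums were 422 to 775 CPM and 451 to 974 CPM for the collecting duct, 359 to 436 CPM and 241 to 633 CPM for podocytes, and 318 to 332 CPM and 333 to 365 CPM for endothelium. Of the red blood cell markers only Alas2 was in the table, at 4.42 to 32.8 CPM in C and 13.9 to 25.9 CPM in the diabetic libraries. In the fits without C replicate 2, 12 of 13 proximal tubule markers had a log2 fold change below 0 for DM-22 (median -0.50) and 11 of 13 for DM+SGLT2i (median -0.55), while all 6 tubular injury markers were above 0 in both (medians 0.63 and 2.19). These values stand beside each comparison made without that library. Their part in the differences of the 34 genes was not tested.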

How the data were processed

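Polyadenylated RNA of whole renal tissue was sequenced in 7 libraries (C n = 3, DM-22 n = 2, DM+SGLT2i n = 2), and groups were taken from the labels. The submitters' processing notes name bcl2fastq, FastQC, Trim Galore, STAR, edgeR and the build mm10, with versions not given in the sources used here. The deposited values are log2 of normalized CPM per gene, as the authors made them with a small constant added. CPM were recovered by undoing the logarithm and the constant, and low values were whole multiples of 1 read in 100% of cases (tolerance 0.02 reads, values under 1000 reads), which gave 46456125 to 56541594 reads per library. At these depths counting error is small beside the spread between libraries.

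Tests used limma 3.58.1 in R 4.3.3 (lmFit, eBayes with trend) on log2(CPM + 0.5) of the 13976 genes that reached 1 CPM in 2 or more libraries, all 34 genes included. The 3 groups were fitted together, two-sided, with Benjamini-Hochberg adjustment over all genes tested and a threshold of 0.05. Fold changes are on the log2(CPM + 0.5) scale and understate those of low genes. Alternatives were other pseudocounts, filters, scalings and library weights, limma voom on the recovered reads, a replicate block, and leaving out libraries. The method was run on simulated data with the same spread for every gene and no library standing apart. That run therefore does not show which changes could be found in these libraries. The genes and lists were chosen with earlier results of these data known. All 34 genes are accounted for, with values per library for the regulators, the near-identical pairs, genes past the threshold and the 3 largest and 3 smallest fold changes of each comparison, and up to 3 genes of each other list, some of which are not reported here. Gene positions and exon lengths came from GENCODE M21 (17537 IDs matched, 17476 with the same symbol), and shared words of 50 bases from its transcripts. Promoter windows came from RefSeq (GRCm38.p6). Protein features were planned and not analysed here. Python 3.11.15, numpy 2.4.6, pandas 2.3.3 and matplotlib 3.10.9 were used.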

Additional observations from a re-analysis of the deposited data

How the results depend on the processing

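The number of the 34 genes past the adjusted threshold was 0 under every alternative except library weights (5 higher for the 4 diabetic libraries against C) and the removal of C replicate 2 together with DM-22 replicate 1, an alternative chosen after seeing the data. The latter gave 1 higher for DM-22 (Acsl1), 3 higher (Angptl4, Acot1 and Acot2) and 1 lower (Cd36) for DM+SGLT2i, 1 higher for DM+SGLT2i against DM-22 (Acot1) and 4 higher for the 4 diabetic libraries (Acsl1, Acot2, Acaa2 and Acot1), with 1 DM-22 library assumed to vary like the other groups. It also called 179 higher and 458 lower of all genes for DM-22, 966 and 694 for DM+SGLT2i, 309 and 128 for DM+SGLT2i against DM-22, and 677 and 931 for the 4 diabetic libraries. Removing C replicate 2 with DM+SGLT2i replicate 1, also chosen after seeing the data, called 0. The cause was not tested.

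With library totals without TMM scaling the median of all genes was -0.0795 for DM-22 (0.00447 with it) and 0.106 for DM+SGLT2i against DM-22 (0.00451 with it), and the median log2 fold change became 0.01 for the mitochondrial genes in DM-22, and 0.13 (all 34) and 0.07 (mitochondrial) for DM+SGLT2i against DM-22. The mitochondrial median for DM+SGLT2i against C was 0.17 with library weights, 0.16 without C replicate 2 and DM-22 replicate 1, and 0.21 without C replicate 2 and DM+SGLT2i replicate 1. In the first of these pairs of removals it was 0.26 for DM-22, and the median of all 34 was -0.09 for DM+SGLT2i against DM-22, and in the second the mitochondrial median for DM+SGLT2i against DM-22 was 0.06.

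Leaving out 1 library at a time called 0 genes throughout. The medians of all 34 genes then ranged from 0.03 to 0.19 (DM-22), 0.04 to 0.17 (DM+SGLT2i), -0.09 to 0.08 (DM+SGLT2i against DM-22) and 0.02 to 0.17 (4 diabetic libraries). Mitochondrial medians ranged from 0.10 to 0.24, 0.03 to 0.23, -0.13 to 0.06 and 0.06 to 0.17, and peroxisomal medians from -0.11 to 0.11, -0.08 to 0.20, -0.07 to 0.27 and -0.11 to 0.17, in the same order.

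Of 15 genes followed, a turn of sign was counted where at least 1 of the 2 estimates exceeded its standard error, and 74 turns with both estimates under it were not. Over the fits that left out 1 library, the log2 fold change for DM-22 ranged from -0.07 to 0.98 for Acot1 and from -0.14 to 1.20 for Angptl4 (lowest without DM-22 replicate 1) and from -0.29 to 0.42 for Acaa1b (lowest without DM-22 replicate 2). For DM+SGLT2i against DM-22 it ranged from -0.34 to 0.37 for Acaa1b (lowest without DM-22 replicate 1), and, lowest without DM-22 replicate 2, from -0.28 to 0.30 for Acadm, -0.06 to 0.99 for Acot1, -0.18 to 1.16 for Angptl4 and -0.03 to 0.38 for Ppargc1a. Without C replicate 2 were the lowest values of Ppara for DM+SGLT2i (-0.61 to 0.39) and, for the 4 diabetic libraries, of Cd36 (-0.31 to 0.30) and Ehhadh (-0.16 to 0.31). With library weights Ppara was -0.54 and Cd36 -0.30 in the same comparisons.

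With a replicate block over the 4 diabetic libraries, DM+SGLT2i against DM-22 gave 0 calls with and without the block, and 537 higher and 159 lower genes at an unadjusted p under 0.05 with it against 557 and 146 without it. The medians with the replicate block were 0.03 (all 34), -0.03 (mitochondrial) and 0.08 (peroxisomal). The deviations of libraries numbered 1 had a correlation of -0.0412. In each diabetic group the other library deviates by the same amount in the opposite direction, so it adds no separate value. The diabetic libraries numbered 1 also stood apart in markers. This correlation therefore cannot decide whether equal numbers mark a pairing or a batch.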
